A study of Mus musculus with 6 samples.

Results

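The 9 membrane adenylyl cyclases, Adcy1 to Adcy9, were examined in purified mouse retinal ganglion cells (RGCs), the projection neurons of the retina, at an age when their axons grow and at an age when that capacity has declined. The members were taken by gene symbol, and all 9 were found among the 24060 genes of the count table and were among the 16449 genes tested. Each sample held RGCs of C57BL/6 mice that were isolated by immunopanning, in which macrophages are first removed with antibodies and RGCs are then captured by CD90 (Thy1). There were 3 samples from embryonic day 18 (E18, replicates 1, 3 and 4) and 3 from postnatal day 5 (P5, replicates 6, 8 and 9). No treatment, injury or genetic change is given for any of them. Nothing states that the samples of an age came from separate animals or litters, so p-values measure the spread between these samples, and isolation day and age cannot be told apart. Counts are given as CPM (reads divided by library size, scaled to the usual standard total), with library sizes adjusted by TMM (trimmed mean of M values). Fold changes come from edgeR's quasi-likelihood test with Benjamini-Hochberg adjustment over all genes tested, are written as log2 of E18 over P5, and were called at an adjusted p under 0.05.

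Membrane adenylyl cyclases convert ATP to cyclic AMP (cAMP). All are switched on by the α subunit of the stimulatory G protein Gs, and they differ in what else controls them. Adcy1, Adcy3 and Adcy8 are stimulated by calcium and calmodulin, Adcy2, Adcy4 and Adcy7 are stimulated by the G protein βγ dimer, Adcy5 and Adcy6 are inhibited by calcium, and Adcy9 stands apart in its poor response to the drug forskolin. cAMP acts through protein kinase A (PKA), the Epac exchange factors and cyclic nucleotide-gated channels, and phosphodiesterases remove it. In RGCs, cAMP is known to bear on axon growth and on the response to trophic factors, and Adcy1 is known for its role in the refinement of retinal axon terminals.

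The catalytic core is what the 9 genes share. In an alignment of their coding sequences, the most similar stretch of 45 bases lies in the second catalytic domain, and 29 of its bases are the same in all 9 genes. The stretch is shown because it marks how alike the members are at their most conserved point and whether reads could be assigned to one of them. Each copy lies within 1 coding exon. Coordinates are on GRCm38, sequences run 5′ to 3′ on the coding strand, and capitals mark the bases shared by all 9.
Adcy1, chr11:7167116-7167160, plus strand: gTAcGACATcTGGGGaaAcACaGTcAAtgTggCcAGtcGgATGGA
Adcy2, chr13:68625816-68625860, minus strand: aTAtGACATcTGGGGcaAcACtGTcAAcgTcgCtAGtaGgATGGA
Adcy3, chr12:4212131-4212175, plus strand: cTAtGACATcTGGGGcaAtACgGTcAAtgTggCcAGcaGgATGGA
Adcy4, chr14:55769401-55769445, minus strand: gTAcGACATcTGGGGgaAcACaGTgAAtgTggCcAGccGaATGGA
Adcy5, chr16:35302319-35302363, plus strand: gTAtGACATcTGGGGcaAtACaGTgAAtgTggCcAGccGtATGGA
Adcy6, chr15:98592701-98592745, minus strand: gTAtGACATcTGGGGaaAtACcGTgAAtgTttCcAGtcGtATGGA
Adcy7, chr8:88327425-88327469, plus strand: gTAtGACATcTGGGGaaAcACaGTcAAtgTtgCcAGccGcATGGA
Adcy8, chr15:64699524-64699568, minus strand: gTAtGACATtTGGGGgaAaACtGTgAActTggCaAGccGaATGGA
Adcy9, chr16:4288367-4288411, minus strand: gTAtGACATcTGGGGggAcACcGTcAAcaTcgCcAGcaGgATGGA

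Even there, no sequence of 50 bases was shared between any pair of members. Over whole coding sequences the closest pair was Adcy5 and Adcy6, the calcium-inhibited enzymes, with 74.4% identity over 3455 aligned bases. Adcy1 and Adcy5 followed at 67.8%. Among the βγ-stimulated enzymes, Adcy4 and Adcy7 were at 67.7%, and Adcy2 was closest to Adcy7 at 67.2%. Adcy3 was closest to Adcy5 at 64.1%, Adcy8 to Adcy2 at 64.4% and Adcy9 to Adcy1 at 64.3%. Reads over 3 members could also come from a gene on the opposite strand. Adcy3 overlaps Cenpo, a centromere protein gene, by 1380 exon bases, Adcy6 overlaps the antisense gene Gm29331 by 605, and Adcy2 overlaps the antisense gene Gm35161 by 189. Whether counting used strand is not known from the sources used here, and reads over those stretches cannot be assigned with certainty.

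The genes sit on 7 chromosomes, with Adcy5 and Adcy9 both on chromosome 16 and Adcy6 and Adcy8 both on chromosome 15. Adcy1 (ENSMUSG00000020431) spans chr11:7063489-7178506 on the plus strand, with 20 exons in its coding transcript. Adcy2 (ENSMUSG00000021536) spans chr13:68620043-68999541 on the minus strand and is the longest, at 379499 bases with 25 exons. Adcy3 (ENSMUSG00000020654) lies at chr12:4133103-4213525 on the plus strand. Adcy4 (ENSMUSG00000022220) lies at chr14:55769057-55784095 on the minus strand and is the shortest, at 15039 bases. Adcy5 (ENSMUSG00000022840) lies at chr16:35154877-35305738 on the plus strand, Adcy6 (ENSMUSG00000022994) at chr15:98589973-98610076 on the minus strand and Adcy7 (ENSMUSG00000031659) at chr8:88272403-88329962 on the plus strand. Adcy8 (ENSMUSG00000022376) lies at chr15:64697084-64922296 and Adcy9 (ENSMUSG00000005580) at chr16:4287529-4420498, both on the minus strand.

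Most of the family was higher at P5. Of the 9 members, 7 were lower at E18, 1 (Adcy6) was higher at E18, and 1 (Adcy4) was not called. The 7 were 1.56-fold to 3.34-fold higher at P5. Calls were common in this comparison: 43.4% of all genes tested were called, 22.5% lower at E18 and 20.8% higher at E18. The members' median log2 fold change was -0.85, beside 0.00 over all genes tested. For 8 of the 9 members the E18 and P5 samples did not overlap, as for 56.1% of all genes tested. In bulk samples, fewer cells of a type and less RNA per cell cannot be told apart.

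**Figure D1:**
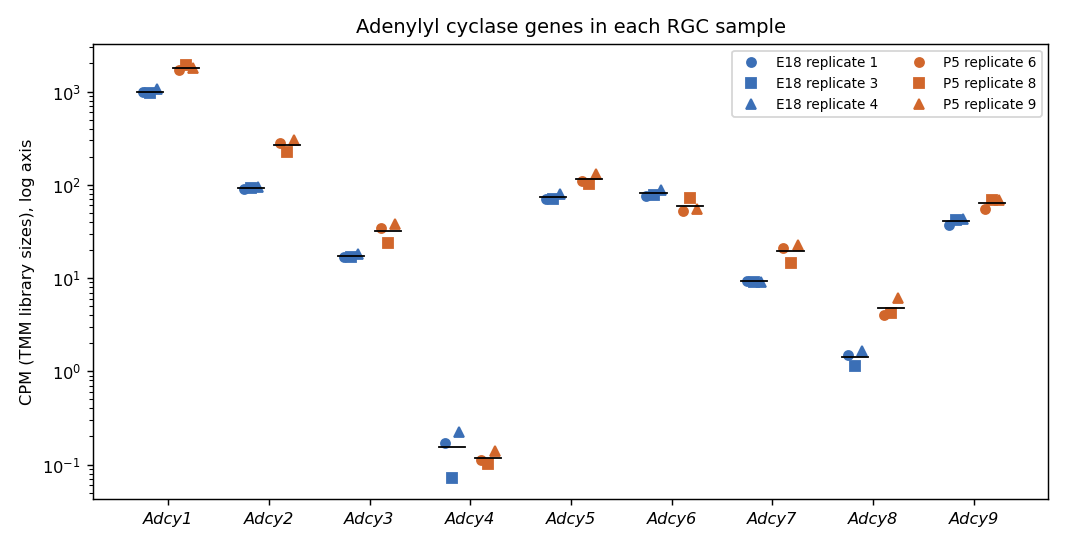
CPM of each adenylyl cyclase gene (log axis) in the 3 E18 samples (blue) and the 3 P5 samples (orange), with a black bar at the mean of each age. Adcy1 sits at the top, with 999 CPM at E18 and 1806 CPM at P5 on average, Adcy4 lies below 1 CPM in every sample, and Adcy6 is the called gene whose P5 samples lie below its E18 samples.

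Among the calcium and calmodulin-stimulated cyclases, Adcy1 was the most abundant. Its CPM was 981, 956 and 1060 at E18 and 1688, 1943 and 1788 at P5. All P5 samples lay well above all E18 samples, with P5 replicate 8 the highest. The mean rose from 999 ± 54.2 to 1806 ± 128 CPM between E18 and P5 (SD, n = 3 each), and the log2 fold change was -0.85 (SE 0.0875, edgeR adjusted p = 0.000336). Of all genes tested, 12.3% had a log2 fold change at or below that of Adcy1.

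Adcy8, a neuronal enzyme of the same class, was scarce but changed the most of the family in fold. It had 123, 129 and 149 reads at E18 and 354, 415 and 570 at P5. In CPM this was 1.48, 1.15 and 1.65 at E18 against 3.99, 4.22 and 6.06 at P5, without overlap between the ages. The log2 fold change of Adcy8 was -1.74 (SE 0.244, edgeR adjusted p = 0.00106), and 4.06% of genes tested lay at or below it. Adcy3, known best as the cyclase of olfactory neurons and of primary cilia, had 16.8, 16.9 and 17.9 CPM at E18 and 34.3, 24.0 and 38.2 at P5. P5 replicate 8 lay closest to the E18 samples but still above them. The log2 fold change of Adcy3 was -0.90 (SE 0.165, edgeR adjusted p = 0.00327). The overlapping gene Cenpo, which shares 18.6% of the 50-base sequences of Adcy3, averaged 11.7 ± 0.483 CPM in the E18 samples and 8.94 ± 1.11 CPM in the P5 samples (SD, n = 3 each). The change of Cenpo was 0.39 on the log2 scale (edgeR adjusted p = 0.0446), opposite in direction to that of Adcy3.

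Of the βγ-stimulated cyclases, Adcy2, an enzyme found mainly in the brain, was second in abundance in the family. Its CPM was 91.1, 92.8 and 94.8 at E18 and 283, 224 and 299 at P5. The E18 samples were nearly level, while the P5 samples were spread and all lay well above them. The log2 fold change of Adcy2 was -1.53 (SE 0.117, edgeR adjusted p = 0.00012), which is 2.89-fold higher at P5, and 5.2% of genes tested lay at or below it. Adcy7, a cyclase prominent in blood and immune cells, had 9.38, 9.13 and 9.10 CPM at E18 and 20.8, 14.5 and 22.6 CPM at P5. The groups did not overlap, and P5 replicate 8 was again the lowest P5 sample. Its log2 fold change was -1.07 (SE 0.169, edgeR adjusted p = 0.00177). Microglia and macrophage markers, 8 genes of which none was without reads, summed to between 1.60 and 2.53 CPM at E18 and between 1.46 and 2.19 CPM at P5. The part of such cells in the Adcy7 values was not tested.

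Adcy4, the cyclase of this class known from endothelium and other peripheral tissue, was almost undetected. Its reads numbered 14, 8 and 20 at E18 and 10, 10 and 13 at P5, in libraries of 81213639 to 114512853 counts. The samples overlapped, at 0.154 ± 0.0759 CPM (SD, n = 3) and 0.118 ± 0.0188 CPM (SD, n = 3). The log2 fold change was 0.36 with an SE of 0.492 (edgeR adjusted p = 0.579), so a difference between the ages was not detectable at this depth. Without E18 replicate 4 the sign of that value turned, to -0.0053.

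The calcium-inhibited cyclases Adcy5 and Adcy6, the closest pair in sequence, moved in opposite directions. Adcy5, the main cyclase of striatal neurons and abundant in heart, had 70.4, 70.7 and 79.2 CPM at E18 and 109, 102 and 132 CPM at P5. All P5 samples were above all E18 samples, and the log2 fold change was -0.64 (SE 0.116, edgeR adjusted p = 0.0031). Adcy6, a broadly expressed cyclase also prominent in heart, had 76.8, 77.0 and 88.5 CPM at E18 and 52.7, 71.4 and 55.4 CPM at P5. Its P5 samples were all below its E18 samples, but P5 replicate 8 came close to them. The log2 fold change of Adcy6 was 0.43 (SE 0.13, edgeR adjusted p = 0.0266), and 22.5% of genes tested lay at or above it. This call was the least stable of the family. It was lost without E18 replicate 3 (0.47, edgeR adjusted p = 0.0582), E18 replicate 4 (0.36, adjusted p = 0.0904), P5 replicate 6 (0.33, adjusted p = 0.0925) or P5 replicate 9 (0.38, adjusted p = 0.0826).

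Adcy9, a widely expressed cyclase, had 36.9, 41.8 and 42.8 CPM at E18 and 55.1, 69.1 and 68.3 CPM at P5. The ages did not overlap, with P5 replicate 6 the lowest P5 sample. The log2 fold change of Adcy9 was -0.66 (SE 0.117, edgeR adjusted p = 0.00275).

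**Figure D2:**
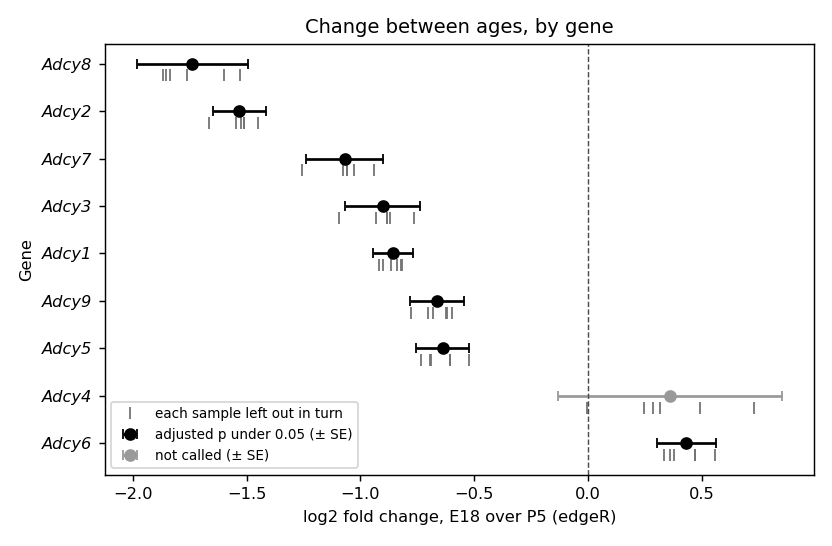
Log2 fold change of E18 over P5 for each gene (points, with 1 SE), black where the edgeR adjusted p was under 0.05, and the same value with each of the 6 samples left out in turn (grey ticks). The 7 genes from Adcy8 (-1.74) to Adcy5 (-0.64) stay below 0 with any sample left out, Adcy6 stays above 0, and the ticks of Adcy4 reach 0.

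The samples of an age differed more from each other at P5. The median coefficient of variation over the 9 members was 6.80% at E18 and 16.0% at P5. P5 replicate 8 was the lowest P5 sample for 5 of the 9 members (Adcy2, Adcy3, Adcy4, Adcy5 and Adcy7) and the highest for Adcy1, Adcy6 and Adcy9. For Adcy2, Adcy3, Adcy5, Adcy6 and Adcy7 it lay closest of the P5 samples to the E18 samples, while for Adcy1 and Adcy9 it lay farthest.

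To set the genes beside each other, CPM was divided by the length of the merged exons in kilobases (RPKM). At E18 the order was Adcy1 (79.8 ± 4.33 RPKM, SD, n = 3), Adcy2 (22.1 ± 0.444), Adcy6 (11.9 ± 0.991), Adcy5 (10.2 ± 0.695), Adcy9 (7.80 ± 0.610), Adcy3 (2.76 ± 0.102), Adcy7 (1.37 ± 0.0226), Adcy8 (0.175 ± 0.0310) and Adcy4 (0.0329 ± 0.0162). At P5 it was Adcy1 (144 ± 10.3 RPKM, SD, n = 3), Adcy2 (63.8 ± 9.40), Adcy5 (15.9 ± 2.20), Adcy9 (12.3 ± 1.51), Adcy6 (8.82 ± 1.49), Adcy3 (5.15 ± 1.17), Adcy7 (2.87 ± 0.637), Adcy8 (0.583 ± 0.139) and Adcy4 (0.0252 ± 0.00402). At both ages the ranges of neighbours in the order did not overlap over the 3 samples. With the longest transcript as length, or the RefSeq transcript (chosen after seeing the data), the order of the means stayed as given, but at P5 the ranges of Adcy9 and Adcy6 overlapped under the former, and those of Adcy5 and Adcy9 and of Adcy6 and Adcy3 under the latter. Adcy6 thus moved from the third to the fifth place, and Adcy5 and Adcy9 each moved up by 1. Among 15628 tested genes with a length, Adcy1 ranked 395 by RPKM at E18 and 151 at P5, and Adcy2 ranked 2199 and 574.

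The summed level of the 9 genes was 133, 132 and 144 RPKM in the E18 samples and 245, 253 and 264 RPKM in the P5 samples. The sum was 1.86-fold higher at P5, with means of 136 ± 6.81 and 254 ± 9.59 RPKM (SD, n = 3). A two-sided exact permutation test over the 6 samples gave p = 0.1, the smallest p that 3 against 3 samples allow, so no sum or share can pass 0.05 here. Adcy1 alone made up 58.6% ± 0.627 of the sum at E18 and 56.9% ± 3.92 at P5 (SD, n = 3), and these ranges overlapped (exact permutation p = 0.4).

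The βγ-stimulated class took a larger share at P5, mostly through Adcy2, which alone held 16.2% at E18 and 25.1% at P5 on average. The share of the class was 17.4%, 17.8% and 16.6% at E18 and 28.7%, 21.9% and 28.2% at P5, without overlap (exact permutation p = 0.1). The calcium-inhibited class took a smaller share at P5, at 15.9%, 16.1% and 16.7% at E18 and 9.37%, 9.78% and 10.1% at P5, also without overlap (exact permutation p = 0.1). Adcy6 alone went from 8.74% ± 0.285 to 3.48% ± 0.595 (SD, n = 3). Adcy9 was at 5.73% ± 0.374 at E18 and 4.86% ± 0.473 at P5, without overlap (exact permutation p = 0.1, n = 3 each). The calcium and calmodulin-stimulated class held 60.8% ± 0.631 at E18 and 59.1% ± 3.45 at P5, a difference of 1.64 percentage points (exact permutation p = 0.4, n = 3 each). Without P5 replicate 8, where this share was 63.1%, that difference was 3.62 percentage points (exact permutation p = 0.1).

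**Figure D3:**
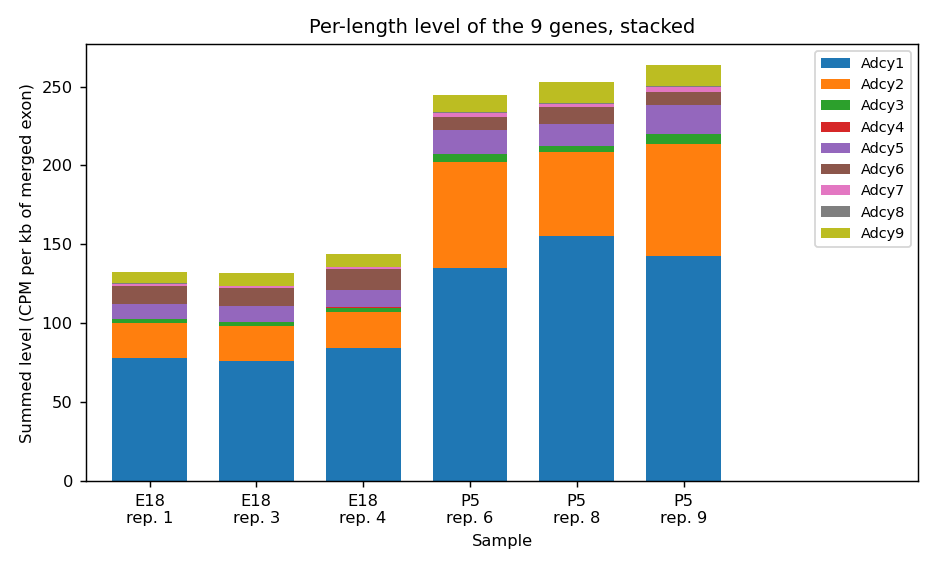
Per-length level (CPM per kb of merged exon) of the 9 genes, stacked in each of the 6 samples. The stacks reach 132 to 144 at E18 and 245 to 264 at P5, Adcy1 (blue) is the largest block in every sample, and the Adcy2 block (orange) is taller at P5.

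Promoters are shown for Adcy1, Adcy2, Adcy5 and Adcy9, the called genes with over 50 CPM on average at P5 that were higher at P5 and had an entry in the RefSeq promoter table (GRCm38.p6), which held 7 of the 9 members, without Adcy6 and Adcy8. Each runs 5′ to 3′ on the strand of the gene over the 250 bases before its start. Capitals mark matches, on either strand, to the GC box GGGCGG, the E-box CACGTG and the cAMP response element half-site TGACG. The windows were searched for the full cAMP response element too, which contains the half-site.
Adcy1, chr11:7063183-7063432, plus strand: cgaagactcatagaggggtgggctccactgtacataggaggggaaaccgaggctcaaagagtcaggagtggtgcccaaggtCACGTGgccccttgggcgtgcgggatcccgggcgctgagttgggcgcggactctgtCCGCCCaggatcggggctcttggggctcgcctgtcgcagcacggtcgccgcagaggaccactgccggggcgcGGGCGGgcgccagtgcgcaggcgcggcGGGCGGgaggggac
Adcy2, chr13:68999542-68999791, minus strand: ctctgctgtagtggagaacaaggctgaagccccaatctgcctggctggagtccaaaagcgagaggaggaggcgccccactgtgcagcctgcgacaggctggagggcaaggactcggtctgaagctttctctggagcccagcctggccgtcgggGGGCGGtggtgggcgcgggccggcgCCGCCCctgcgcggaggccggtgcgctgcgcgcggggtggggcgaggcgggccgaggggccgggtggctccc
Adcy5, chr16:35154614-35154863, plus strand: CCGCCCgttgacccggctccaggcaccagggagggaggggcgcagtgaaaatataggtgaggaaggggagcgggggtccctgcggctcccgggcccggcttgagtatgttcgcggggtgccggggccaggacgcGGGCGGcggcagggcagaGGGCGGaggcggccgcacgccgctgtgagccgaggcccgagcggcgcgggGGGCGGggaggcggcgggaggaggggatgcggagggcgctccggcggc
Adcy9, chr16:4420499-4420748, minus strand: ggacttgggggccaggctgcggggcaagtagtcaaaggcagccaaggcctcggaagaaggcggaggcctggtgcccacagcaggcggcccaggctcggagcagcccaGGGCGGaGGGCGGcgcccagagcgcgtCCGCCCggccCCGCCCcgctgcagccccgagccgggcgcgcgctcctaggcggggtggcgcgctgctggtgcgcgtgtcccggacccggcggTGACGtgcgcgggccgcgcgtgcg

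All 4 windows were rich in GC, from 71.2% in Adcy1 to 78.8% in Adcy9, and held 23 to 34 CpG, beside medians of 52.4% and 6 over all 32851 promoters of the table. The windows of the other members with an entry were lower in GC. Adcy3 had windows at 68.8% and 56.0%, Adcy4 was at 56.0%, and Adcy7 windows were at 54.0% to 56.4%. GC boxes numbered 3 in Adcy1, 2 in Adcy2, 4 in Adcy5 and 4 in Adcy9. A GC box was present in 32.7% of all promoters. The E-box in Adcy1 is found in 6.02% of them, and the half-site in Adcy9 in 17.8%. None of the 4 windows held the full element, which 1.55% of all promoters hold. A match is a run of letters only, and binding was not measured.

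The genes around the cyclases were taken from 9 lists of 107 genes in all, of which 104 were tested. Of these, 41 were lower at E18, 13 were higher and 50 were not called, so 51.9% were called beside 43.4% of all genes tested. Their median log2 fold change was -0.19. The called share was near that of all genes, and values of single genes are given by role.

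Upstream of the cyclases, Gnas, which encodes the Gs α subunit, was not called, at 1168 ± 46.4 CPM at E18 and 1267 ± 69.5 CPM at P5 (SD, n = 3), with a log2 fold change of -0.12 (edgeR adjusted p = 0.268). Gnal, the related olfactory and striatal subunit, was lower at E18 (log2 fold change -0.43, edgeR adjusted p = 0.00765). Of the inhibitory subunits, Gnai1 was at 85.3, 86.8 and 85.7 CPM at E18 and 139, 148 and 143 CPM at P5 (log2 fold change -0.74, edgeR adjusted p = 0.000382), and Gnao1 had a log2 fold change of -0.64 (edgeR adjusted p = 0.0024). The γ subunit gene Gng4 (-1.90) and the β subunit gene Gnb5 (-0.95) had the largest log2 fold changes of the list. In all, the 14 G protein genes split into 6 lower at E18, 0 higher at E18 and 8 not called, with a median of -0.11. Their called share was 42.9%, beside 43.4% of all genes tested.

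Of 13 Gs-coupled receptors tested, 5 were lower at E18 and 1 was higher (median log2 fold change -0.48), and the called share of 46.2% was near the 43.4% of all genes tested. Drd5, a dopamine receptor, had 10, 13 and 7 reads at E18 and 188, 214 and 225 at P5 (log2 fold change -4.39, edgeR adjusted p = 7.51e-05). The β1 adrenergic receptor Adrb1 (-1.29) and the corticotropin-releasing hormone receptor Crhr1 (-1.04) were next among called receptors that averaged 1 CPM or more over both ages. Below that average, the serotonin receptor Htr7 (-2.26) and the prostaglandin receptor Ptger2 (-2.19) had larger log2 fold changes. The PACAP receptor gene Adcyap1r1 was at 49.1 ± 6.24 and 60.3 ± 7.01 CPM (SD, n = 3), with a log2 fold change of -0.29 that was not called (edgeR adjusted p = 0.0854). Of 15 Gi-coupled receptors, which lower cyclase activity, 8 were lower at E18 and 2 were higher (median -0.33), a called share of 66.7%. The adenosine A1 receptor gene Adora1 was at 9.46, 8.62 and 11.6 CPM at E18 and 58.4, 40.7 and 106 CPM at P5 (log2 fold change -2.79, edgeR adjusted p = 0.000498). All its P5 samples were higher, and they differed from each other by more than 2-fold. The serotonin receptor Htr1d (-2.63) and the α2C adrenergic receptor Adra2c (-2.16) also were lower at E18. The cannabinoid receptor Cnr1 went the other way, at 231 ± 40.9 CPM at E18 and 130 ± 9.69 CPM at P5 (SD, n = 3; log2 fold change 0.83, edgeR adjusted p = 0.0017).

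Calm2 and Calm3 encode calmodulin, which activates Adcy1 and Adcy8, and both were lower at E18. Calm2 was at 1590 ± 128 CPM at E18 and 2344 ± 111 CPM at P5 (SD, n = 3; log2 fold change -0.56, edgeR adjusted p = 0.00168). Calm3 had a log2 fold change of -0.52 (edgeR adjusted p = 0.00514). Cap2, which encodes a cyclase-associated protein that acts on actin, had a log2 fold change of -2.03, and the soluble cyclase Adcy10, which is no membrane enzyme, was below 1 CPM in every sample and was not called (0.56, edgeR adjusted p = 0.305). Of the 8 calmodulins and partners tested, 4 were lower at E18 and 1 was higher, a called share of 62.5% beside 43.4% of all genes tested.

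Downstream, the 9 PKA subunit and inhibitor genes held 5 that were lower at E18 and 0 that were higher (median -0.28), a count that fell to 3 without E18 replicate 1 or without E18 replicate 3. Their called share was 55.6%, beside 43.4% of all genes tested. The catalytic subunit gene Prkacb was at 295, 313 and 348 CPM at E18 and 503, 592 and 605 CPM at P5 (log2 fold change -0.83, edgeR adjusted p = 0.000723). The other main catalytic subunit, Prkaca, was not called (-0.19, edgeR adjusted p = 0.13). The regulatory subunit Prkar1b (-0.49) and the inhibitor Pkib (-2.11) were lower at E18. Of 10 other cAMP effectors, 5 were lower at E18 and 0 were higher (median -0.39). The called share of these effectors was near the 43.4% of all genes tested. Rapgef4, which encodes Epac2, was at 50.3, 47.8 and 60.9 CPM at E18 and 161, 120 and 171 CPM at P5 (log2 fold change -1.51, edgeR adjusted p = 0.000312), and the pacemaker channel gene Hcn2 (-1.25) was lower at E18 as well.

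Among 16 cAMP phosphodiesterase genes, 7 fell on the side lower at E18 and 3 on the other (median -0.30). The called share was 62.5%, beside 43.4% of all genes tested. Pde1a, whose product is itself activated by calmodulin, had 39, 20 and 44 reads at E18 and 828, 572 and 1094 at P5 (log2 fold change -4.58, edgeR adjusted p = 0.000231). Pde7b (-1.76) and Pde8b (-1.52) followed among those lower at E18. Pde1b, also of the calmodulin-activated class and more abundant, was higher at E18, at 320 ± 31.9 CPM against 147 ± 19.9 CPM at P5 (SD, n = 3; log2 fold change 1.12, edgeR adjusted p = 0.000407). Pde7a (0.59) and Pde3b (0.55) were higher at E18 as well. Cnr1, Htr7, Ptger2, Pde1b, Pde7a and Pde3b were named after their values were seen. The lists of anchoring proteins and of CREB factors had positive medians, with called shares below the 43.4% of all genes tested. Of 11 AKAP genes, which tether PKA, 3 were higher at E18 and 1 was lower (median 0.13), a called share of 36.4%. Akap13 was at 0.72, Akap9 at 0.59 and Akap2 at -0.70. Of 8 CREB family and coactivator genes, 3 were higher at E18 and 0 were lower (median 0.30, called share 37.5%). They were the acetyltransferase gene Ep300 (0.74), Atf1 (0.67) and the coactivator Crtc2 (0.62). The call of Atf1 was lost without E18 replicate 1 (edgeR adjusted p = 0.0621) and without E18 replicate 3 (adjusted p = 0.0594). Creb1 itself was not called (0.27, edgeR adjusted p = 0.0803).

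**Figure D4:**
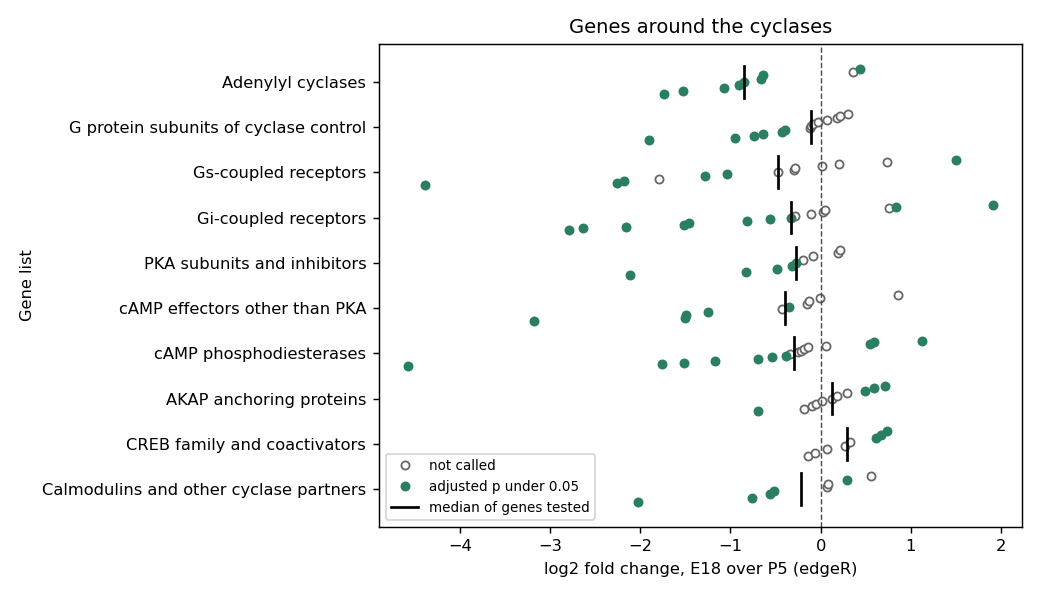
Log2 fold change of E18 over P5 for every gene tested in the adenylyl cyclase family and in the 9 surrounding lists, filled where the edgeR adjusted p was under 0.05, with a bar at the median of each list. The cyclases have a median of -0.85, the AKAP and CREB lists have medians of 0.13 and 0.30, and Pde1a and Drd5 are the far points at the left.

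The genes most like Adcy1 over the 6 samples were Slmo1, Syt9 and Atl2, with root-mean-square differences of 0.0417, 0.0546 and 0.0592 between centred log2(CPM + 0.5) profiles. The median over 9725 genes with at least 10 CPM on average was 0.468. For Adcy8 they were Rps6ka4 (0.0673), Gabbr2 (0.0782) and Rims4 (0.0878), beside a median of 0.770. Adcy8 averaged 1.43 CPM at E18, so the added 0.5 shrinks its change in this measure. The log2 fold changes of these 3 genes were -1.41, -1.46 and -1.45, beside -1.74 for Adcy8. All profiles share the same 6 samples, and the values are a description.

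RGC markers had the largest summed CPM of the marker lists in every sample. Sums depend on which genes a list holds, so they do not compare amounts of cell types. The 12 RGC markers summed to between 7747 and 9159 CPM at E18 and between 8346 and 9602 CPM at P5. Tubb3 (2565 and 1831 CPM on average at E18 and P5) and Nefl (1814.5 and 2914 CPM) were the largest of them. The 9 amacrine cell markers summed to between 353 and 537 CPM at E18 and between 606 and 743 CPM at P5, so they were higher at P5, as 7 of the cyclases were. The 8 Müller glia and astrocyte markers summed to between 322 and 355 CPM at E18 and between 242 and 284 CPM at P5, and the 7 oligodendrocyte lineage markers to between 73.8 and 76.7 and between 38.0 and 61.3 CPM, higher at E18 as Adcy6 was. The part of these cells in the members' values was not tested. The 8 photoreceptor markers reached at most 9.98 CPM, the 7 bipolar cell markers 26.2 CPM and the 8 endothelial and pericyte markers 72.5 CPM, each highest in E18 replicate 1. Dividing cell markers summed to 214, 60.5 and 21.4 CPM in E18 replicates 1, 3 and 4 and to between 13.1 and 24.6 CPM at P5. Without E18 replicate 1, 8 cyclases were called, 7 lower at E18 and Adcy6 higher, the last at an edgeR adjusted p of 0.0499. Over all genes, 5110 of 16741 tested were called in that setting. E18 replicate 3, at 60.5 CPM of dividing cell markers, stayed in it, and the part of dividing cells was not tested.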

How the data were processed

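RNA-seq libraries of immunopanned RGCs were compared between 3 E18 and 3 P5 samples, grouped by the age in their labels. The members, gene lists and tests were chosen with earlier results of these data known. The authors aligned reads to mm10 (STAR), counted reads per RefSeq gene (HT-seq) and deposited the raw counts. The submitters' processing notes also name CASAVA 1.8.2 and edgeR. Strand setting and the handling of reads with several matches are not given in the sources used here. The labels name polyA RNA, while the protocol names ribosomal depletion. The column used for E18 replicate 1 also bears the numbers 2 and 5 in its name. The authors also deposited normalized counts (a signal scaled for library size), log2 fold changes, p-values with false discovery rates and a rank score, none of which was used. Value columns of no sample numbered 0.

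Counts were tested with edgeR 4.0.16 in R 4.3.3 (filterByExpr, TMM, glmQLFit and glmQLFTest) with Benjamini-Hochberg adjustment over 16449 genes, after a check on simulated counts. Library totals were 81213639 to 114512853. Replicates differed by more than sampling noise (chi-square per degree of freedom 30.5 to 141). Alternatives were DESeq2 1.42.0, the edgeR likelihood ratio test, other size factors, no filter and leaving out each sample. Exon lengths, positions and coding sequences came from GENCODE M21 (GRCm38), aligned with MAFFT 7.526, and promoters from RefSeq. Sums and shares of RPKM were compared by exact permutation tests. Named genes were the 9 members, 14 genes fixed by name, up to 3 genes per list with the largest called fold change at 1 CPM or more, and the 3 genes most like Adcy1 and Adcy8. Some genes that this rule names are not reported here.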

Additional observations from a re-analysis of the deposited data

How the results depend on the processing

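The 7 members lower at E18 kept direction and call in all 11 alternatives, from -1.87 to -1.53 for Adcy8 and from -0.73 to -0.52 for Adcy5. Adcy6 ranged from 0.33 to 0.56, with edgeR or DESeq2 adjusted p from 0.00189 to 0.0925, and was lost in 4 of the 11, each of which left out 1 sample. Adcy4 ranged from -0.0053, a reversed sign, without E18 replicate 4 to 0.73 without E18 replicate 3. Members called numbered 8 under the other tests, size factors and filter and 7 to 8 with a sample left out. Over all genes, 7135 calls became 7139 to 7682 under other tests, size factors and filter and ranged from 4575 (without E18 replicate 3) to 8796 (without P5 replicate 8) with a sample left out. Calls in the pathway lists numbered 54, with a range of 42 to 57 with a sample left out. Prkaca was called without P5 replicate 8 (edgeR adjusted p = 0.0255), Adcyap1r1 without E18 replicate 4 (0.0457) and Creb1 without P5 replicate 6 (0.0487). With the RefSeq transcript as length, an alternative chosen after seeing the data, Adcy3 was at 3.96 and 7.40 RPKM, Adcy7 at 1.77 and 3.71 and Adcy9 at 8.99 and 14.2 at E18 and P5. Sums and shares kept their direction in all 9 alternatives. No paired analysis was possible because the ages share no replicate number.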
